A study of Mus musculus with 54 samples.

Results

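CTCF is a zinc-finger protein that binds DNA in nearly every cell type and holds chromatin loops in place together with cohesin. BORIS, encoded by Ctcfl, is a paralog with a nearly matching set of zinc fingers that is normally made only in male germ cells, where it occupies part of the CTCF sites and is often found at active promoters and at sites that hold clustered copies of the motif. The sites described here are the CTCF peaks of wild-type germ cells that BORIS also bound and that had no CTCF peak in the combined mutant. They were the peaks of the WT CTCF list that shared at least 1 bp with a WT BORIS peak and overlapped no peak of the combined mutant (CM) CTCF list, and 1789 of the 34625 WT CTCF peaks met that rule. They were thus chosen by the measured CTCF and BORIS peak positions, and those lists support no test here. They are called lost CTCF/BORIS peaks. The 4285 CTCF/BORIS peaks that did overlap a CM CTCF peak are called kept, and 13409 peaks without BORIS that overlapped no CM CTCF peak are called lost CTCF-only peaks.

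The mice were C57BL/6 males aged 3 months, and CM mice carried 1 functional Ctcf allele and no functional Boris allele (Ctcf+/- Boris-/-), whereas WT mice were Ctcf+/+ Boris+/+. ChIP-seq was done with antibodies to CTCF, BORIS, RNA polymerase II (Pol2) and H3K4me3 on germ-cell-enriched preparations, each pooled from 4 mice. H3K4me3 had 1 library in WT and 1 in CM, and the other antibodies had 2 in each genotype used. RNA called whole testis came from the same kind of preparation, in which collagenase digests the interstitial tissue, with 3 independent preparations of 4 mice for each of WT, CM, Ctcf+/- (CTCF HET) and Boris-/- (BORIS KO), and RNA was also sequenced from round spermatids (3 WT, 3 CM) and spermatocytes (2 WT, 3 CM). Every CTCF HET, BORIS KO and CM whole testis comparison used the same 3 WT libraries. Each antibody and genotype had a single peak list, so the error of a peak comparison is that of counting peaks, peaks close to each other share their surroundings, and "lost" means absent from the CM list. The CM CTCF list held 21525 peaks with heights from 100 to 968, against 100 to 4391 in WT, and the lists give no read depth.

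The stretches in the following lines show the motif copies at lost CTCF/BORIS peaks named later, since clustered CTCF motifs are the sequence feature most often linked to BORIS. They are reference sequence of the plus strand of mm9 (NCBIM37), printed 5′ to 3′, with motif matches in capitals and up to 10 bp on either side. The annotated UTR bases and the matches in them were left out. Matches came from a 20 bp matrix learned from CTCF-only peaks, seeded with the core of the known CTCF motif and scanned on both strands. The Ctcf stretch (chr8:108160645-108160771) is at an intronic CTCF summit 140 bp upstream of the nearest start and holds a plus-strand and a minus-strand match 87 bp apart. The Prss50 stretch (chr9:110760394-110760471) is at a CTCF summit 51 bp upstream of the start and holds 2 plus-strand matches 48 bp apart. The Katnal1 stretch (chr5:149754726-149754801) is intronic and away from any start, with 2 minus-strand matches 36 bp apart, and the Camta2 stretch (chr11:70501217-70501364) has 2 minus-strand matches 108 bp apart in an intron just inside the gene.
Ctcf: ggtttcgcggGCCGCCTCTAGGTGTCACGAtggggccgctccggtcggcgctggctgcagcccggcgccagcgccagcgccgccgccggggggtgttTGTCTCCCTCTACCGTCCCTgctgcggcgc
Prss50: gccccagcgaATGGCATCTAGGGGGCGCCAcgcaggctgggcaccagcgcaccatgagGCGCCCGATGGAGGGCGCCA
Katnal1: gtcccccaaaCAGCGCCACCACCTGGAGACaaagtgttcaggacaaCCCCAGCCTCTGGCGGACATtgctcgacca
Camta2: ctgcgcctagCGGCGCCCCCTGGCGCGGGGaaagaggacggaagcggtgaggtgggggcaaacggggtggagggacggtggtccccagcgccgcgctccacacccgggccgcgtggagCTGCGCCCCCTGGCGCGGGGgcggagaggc

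The next stretches belong to genes whose RNA was higher in CM testis (Tmed3, Cask, Smarcd3) or lower (Usp49), shown because 2 or more copies lie within 150 bp of the CTCF summit. Tmed3 (chr9:89599333-89599556, intron) holds 2 plus-strand matches 184 bp apart, and Cask (chrX:13423949-13424089, summit 148 bp upstream of the nearest start) holds 2 plus-strand matches 101 bp apart. Smarcd3 (chr5:24104456-24104624, coding exon) holds 3 matches in the order plus, minus, plus over 129 bp. The stretch at Usp49 (chr17:47766783-47766875) lies in an intron with 2 plus-strand matches 53 bp apart, and the start nearest to its summit is that of Med20. Kit (chr5:75971770-75972027, intron, summit 794 bp downstream of the start) was added after its values were seen, since only 1 of its 3 matches lies near the summit.
Tmed3: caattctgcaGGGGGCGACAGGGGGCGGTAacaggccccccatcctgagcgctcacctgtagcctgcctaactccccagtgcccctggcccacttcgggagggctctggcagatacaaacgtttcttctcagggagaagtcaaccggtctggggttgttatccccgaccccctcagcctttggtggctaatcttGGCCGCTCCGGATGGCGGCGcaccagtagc
Cask: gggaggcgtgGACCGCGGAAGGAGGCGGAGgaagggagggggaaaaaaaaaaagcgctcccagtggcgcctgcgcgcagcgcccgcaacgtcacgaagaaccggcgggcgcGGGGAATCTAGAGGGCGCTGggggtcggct
Smarcd3: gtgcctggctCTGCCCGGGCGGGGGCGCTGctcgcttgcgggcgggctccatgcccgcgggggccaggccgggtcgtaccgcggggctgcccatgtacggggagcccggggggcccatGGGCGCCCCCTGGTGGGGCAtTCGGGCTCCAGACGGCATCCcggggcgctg
Usp49: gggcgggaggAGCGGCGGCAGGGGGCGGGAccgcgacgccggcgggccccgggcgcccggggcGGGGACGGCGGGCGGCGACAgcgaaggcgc
Kit: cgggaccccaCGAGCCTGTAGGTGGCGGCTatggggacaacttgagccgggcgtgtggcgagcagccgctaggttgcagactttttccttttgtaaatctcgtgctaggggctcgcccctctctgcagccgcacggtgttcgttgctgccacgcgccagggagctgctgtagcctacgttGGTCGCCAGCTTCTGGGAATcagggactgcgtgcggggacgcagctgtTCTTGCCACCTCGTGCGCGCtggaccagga

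Lost CTCF/BORIS peaks were weaker CTCF peaks than kept ones and stronger than lost CTCF-only ones. The CTCF and BORIS heights come from the lists that chose the peaks, so they are a description with no test. The height is the read pile-up at the summit. It had a median of 391 (interquartile range 191 to 841, highest 2990) at lost CTCF/BORIS peaks, 2430 at kept CTCF/BORIS peaks and 166 at lost CTCF-only peaks. When all WT CTCF peaks were divided into 4 height classes of equal number (lowest 100 to 177, then up to 491, 1379 and 4391), the lost CTCF/BORIS peaks numbered 413, 619, 558 and 199 from the lowest class to the highest. In the second class on the autosomes 74% of CTCF/BORIS peaks were lost against 58% of CTCF-only peaks, in the third 40.2% against 20.6%, and in the highest 5.84% against 4.09%.

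**Figure D1:**
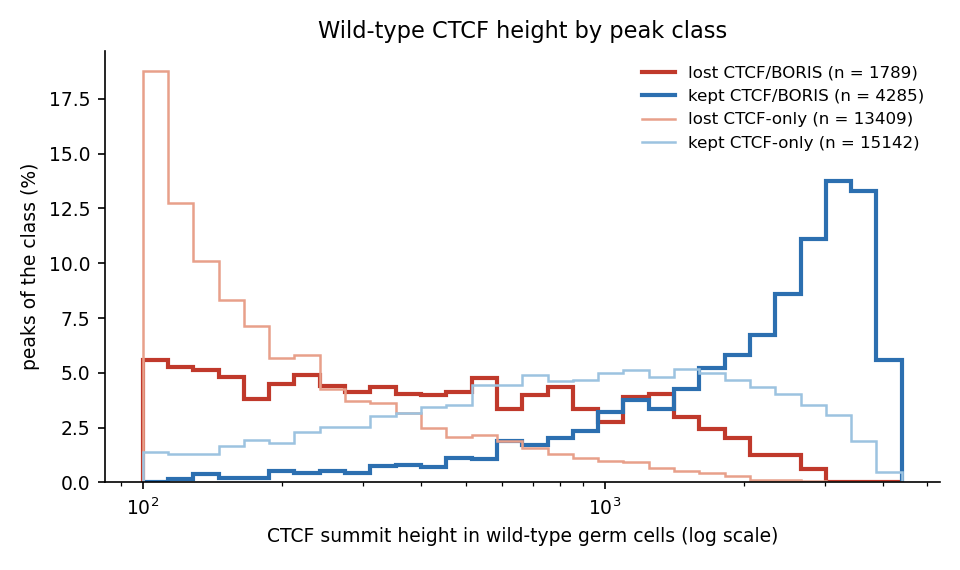
Distribution of WT CTCF summit height (x axis, log scale) in the 4 classes of WT CTCF peaks, as the percentage of each class per height bin (y axis). Lost CTCF/BORIS peaks (median 391) spread over the range between lost CTCF-only peaks (median 166) and kept CTCF/BORIS peaks (median 2430).

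The BORIS signal at the lost peaks was lower and less well centred than at the kept ones. The median BORIS height was 78 against 101, and the BORIS summit lay within 50 bp of the CTCF summit in 70% of lost and 88.3% of kept peaks. BORIS was taller than CTCF at 104 lost peaks (5.81%) and at 4 kept peaks (0.0933%), and the tallest BORIS signals of the set sat at the promoters of Ctcfl (1808) and Prss50 (1403). Most lost peaks (1727) met a single BORIS peak.

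Most lost peaks had no CM CTCF peak close by. The nearest CM CTCF peak was a median of 18272 bp away, and only 97 lost peaks (5.42%) had a CM peak within 1 kb. At the edge of the rule, the smallest gaps to a CM peak were 25, 95 and 96 bp, and the smallest overlaps of kept peaks with a CM peak were 131, 138 and 142 bp. The smallest overlaps with a BORIS peak among members were 3, 5 and 18 bp, and the lost CTCF-only peaks nearest to a BORIS peak lay 10, 14 and 14 bp from it. The lowest member heights were 100, 100 and 101, at the lower end of the CTCF lists.

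Position relative to genes separated the lost CTCF/BORIS peaks from both reference classes. A summit within 1 kb of an annotated transcription start was found for 60.3% of them (1079 of 1789, 95% Wilson interval 58 to 62.6), against 27.7% of kept CTCF/BORIS peaks and 27% of lost CTCF-only peaks. The differences were 32.6 and 33.4 percentage points (adjusted p = 3.12e-124 and 8.61e-166). These and the following adjusted p-values of peak shares are from a two-sided Fisher's exact test with Benjamini-Hochberg adjustment. In the main setting the adjustment covered the 12 comparisons of this kind. In an alternative setting it covered the comparisons made in that setting, for some of them fewer than 12. The difference held in every height class, and the promoter share of the lost CTCF/BORIS peaks fell from 67.3% in the lowest class to 47.7% in the highest.

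Within the promoter, the lost peaks lay close to the start on either side of it. The median distance to the nearest start was 406 bp over all lost CTCF/BORIS peaks and 6016 bp over kept ones, and 25.2% against 11.6% lay within 100 bp. Over lost CTCF-only peaks the median was 6419 bp, and 9.34% lay within 100 bp. Among promoter peaks, the summit was upstream of the start in 50.3% of lost (543 of 1079, interval 47.3 to 53.3) and 73.2% of kept peaks (interval 70.6 to 75.7). Among lost CTCF-only promoter peaks it was 43.3% (interval 41.7 to 44.9), so the upstream excess of kept peaks was absent in both lost classes. By annotation, 38.3% of lost summits were intergenic, 30% intronic, 15.2% in a UTR, 13.4% in a coding exon and 3.07% in a non-coding exon, whereas UTRs held 5.2% and coding exons 4.34% of kept summits. Of lost CTCF-only summits, UTRs held 7.17% and coding exons 11.1%, so the coding exon share was close in the lost classes. The 301 bp around the lost summits had a median GC content of 62.8% and a CpG observed-to-expected ratio of 0.688, against 53.8% and 0.384 at kept peaks. At lost CTCF-only peaks these medians were 55.5% and 0.296.

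**Figure D2:**
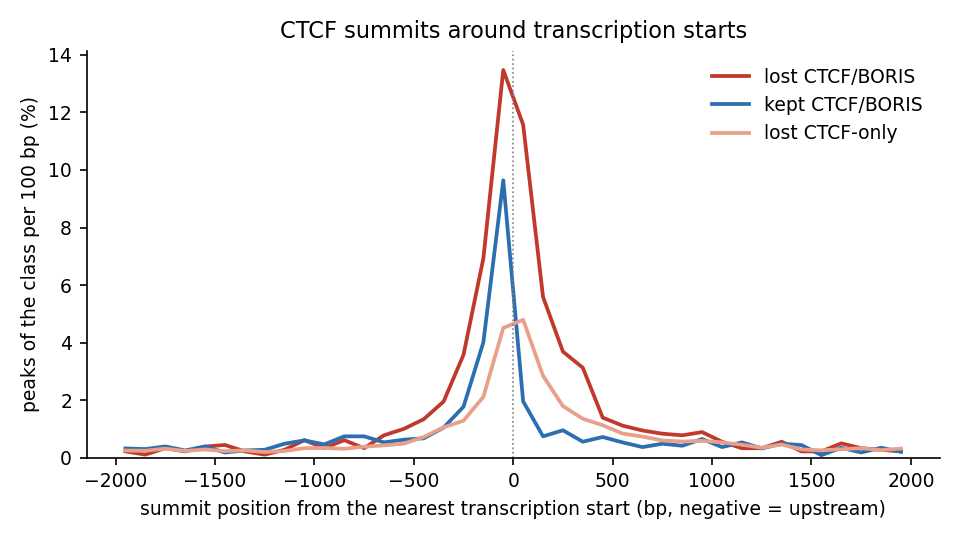
Share of each class (y axis, per 100 bp) by the position of the CTCF summit from the nearest transcription start (x axis, bp, negative is upstream). The lost CTCF/BORIS curve is about even on the 2 sides of the start (50.3% of promoter peaks upstream), and the kept CTCF/BORIS curve falls off inside the gene (73.2% upstream). The lost CTCF-only class has 43.3% upstream.

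Many of the lost CTCF/BORIS peaks overlapped peaks of Pol2, the enzyme that transcribes genes, and of H3K4me3. In WT germ cells, Pol2 peaks overlapped 38.2% of them against 16.3% of kept CTCF/BORIS peaks (difference 21.9 points, adjusted p = 4.13e-72) and 13.7% of lost CTCF-only peaks (24.5 points, 3.12e-124). H3K4me3, a histone mark of active promoters, overlapped 48.6% against 23.1% (25.5 points, 1.77e-82) and 17% (31.6 points, 1.42e-175).

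The excess was present but smaller among promoter peaks alone. There WT H3K4me3 covered 72.8% of lost CTCF/BORIS, 60.3% of kept CTCF/BORIS and 50.9% of lost CTCF-only peaks, and WT Pol2 covered 56.9%, 42% and 39%. In the highest height class the excess over kept peaks did not pass the test (H3K4me3 31.2% against 27.3%, adjusted p = 0.253; Pol2 24.1% against 18.6%, adjusted p = 0.0675). At promoters of that class it was 1 percentage point for Pol2 and -8.8 points for H3K4me3, in an alternative chosen after seeing the data. The remaining 543 lost CTCF/BORIS peaks (30.4%) had neither a promoter nor either mark in either genotype, compared with 60.3% of kept peaks.

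**Figure D3:**
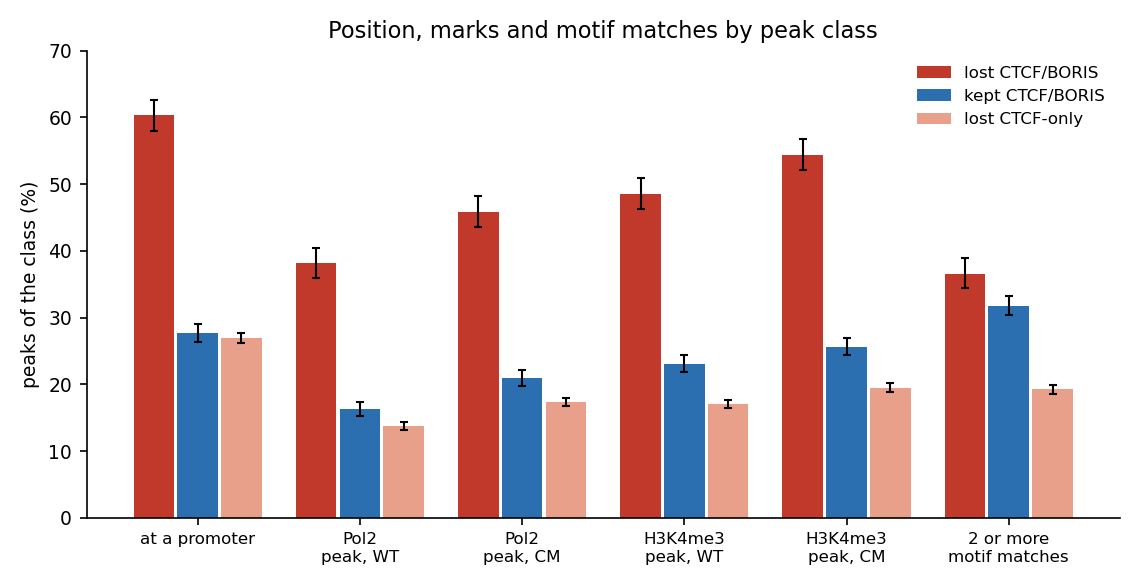
Percentage of peaks (y axis) at a promoter, overlapping a Pol2 or H3K4me3 peak of WT or CM germ cells, or holding 2 or more motif matches, for lost CTCF/BORIS, kept CTCF/BORIS and lost CTCF-only peaks, with 95% Wilson intervals. The lost CTCF/BORIS bar is the tallest in each set, with the smallest gap for motif matches (36.6% against 31.8% in kept peaks).

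**Figure D4:**
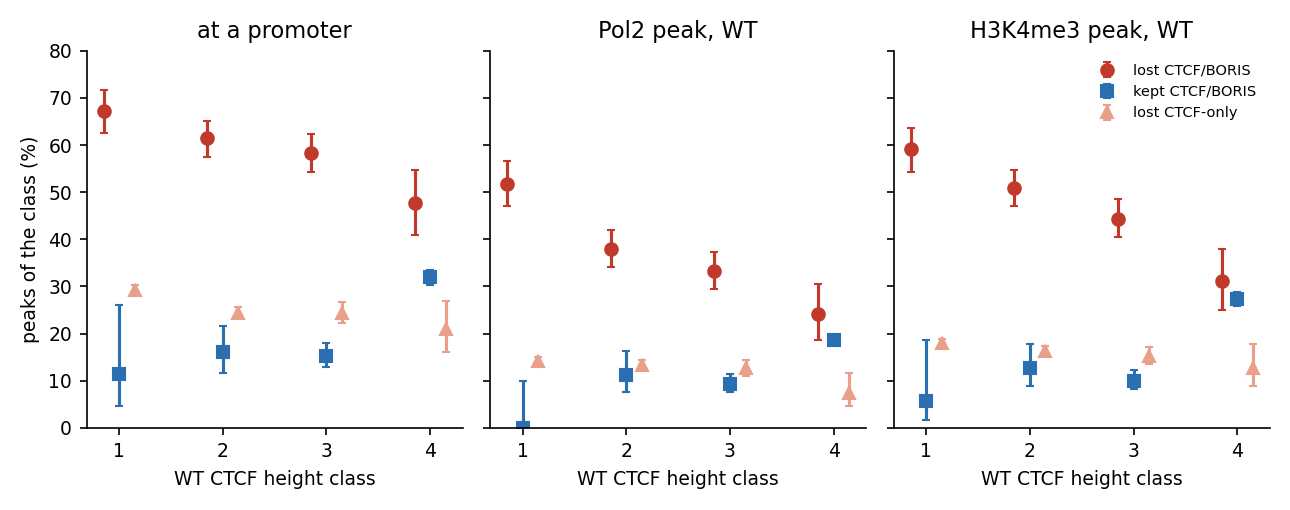
Percentage of peaks (y axis) at a promoter, with a WT Pol2 peak and with a WT H3K4me3 peak, by WT CTCF height class (x axis, 1 lowest), with 95% Wilson intervals. Lost CTCF/BORIS peaks exceed kept ones by far in classes 1 to 3, and the marks come together in class 4 (H3K4me3 31.2% against 27.3%).

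The marks mostly persisted where the CTCF peak was gone. In CM germ cells, Pol2 overlapped 45.9% of the lost CTCF/BORIS peaks, 21% of kept ones (25 points, adjusted p = 1.77e-82) and 17.4% of lost CTCF-only peaks (28.6 points, 1.04e-145), and H3K4me3 overlapped 54.4%, 25.6% (28.8 points, 6.31e-100) and 19.5% (34.9 points, 4.30e-200). Of the 683 lost peaks with Pol2 in WT, 661 also had it in CM and 22 did not, and 161 had it in CM only. For H3K4me3 the numbers were 826 in both genotypes, 43 in WT only and 148 in CM only. Among promoter peaks, Pol2 in CM only was found at 12% of lost and 12.4% of kept CTCF/BORIS peaks, and H3K4me3 in CM only at 9.64% and 9.01%. The CM Pol2 list was longer than the WT list (28407 against 25192 peaks) and the CM H3K4me3 peaks were fewer and wider (20432 with a median of 1598 bp, against 34347 with 728 bp), and the part of these differences in the CM-only marks was not tested.

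In the main setting the motif content set the lost CTCF/BORIS peaks apart from lost CTCF-only peaks more than from kept ones, and both comparisons depended on the setting. Within 150 bp of the summit, 655 (36.6%) had 2 or more non-overlapping matches, such as the printed Prss50 and Smarcd3 stretches, 854 had 1 and 280 (15.7%) had none. A share of 31.8% of kept peaks (difference 4.83 points, adjusted p = 2.98e-04) and 19.3% of lost CTCF-only peaks (17.3 points, 9.23e-57) had 2 or more. For comparison, 10.4% of windows of that length at all 86842 annotated starts and 3.77% of windows 2 kb from the lost summits held 2 or more matches, and 37.1% and 22.6% held at least 1.

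The excess over kept peaks turned around with a stricter match (5.87% against 8.84%, difference -2.98 points, adjusted p = 7.51e-05). The difference was also negative within each of 4 classes of GC content, where in the GC-richest class it was 41.7% against 47.2% (difference -5.45 points, adjusted p = 0.00487). Against lost CTCF-only peaks the difference was negative in the GC-poorest class and no longer passed the test in the next class. The cause was not tested. Peaks without any match were the larger contrast with kept peaks (15.7% of lost against 1.66% of kept). Lost CTCF-only peaks had the higher share without a match, at 28.6%. The spacing and orientation of neighbouring matches were close in the classes: the median distance was 61 bp at lost and 63 bp at kept CTCF/BORIS peaks, and 57.6% and 57.8% of neighbouring pairs were on the same strand.

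The promoter peaks belonged to 1244 annotated genes, 1118 of them protein coding, and 177 of the 1079 peaks had starts on both strands within 1 kb. Of these genes 1129 were joined to the whole testis table by symbol and 1078 passed the filter on low counts. The preparations are bulk samples, in which fewer cells of a type and less RNA per cell cannot be told apart. For round spermatids and spermatocytes the sources used here do not state whether the libraries of a group come from separate mice, so there the p-values measure the spread between these libraries only.

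Both targeted genes, Ctcf and Ctcfl, carried a lost CTCF/BORIS peak at the promoter. Ctcf was at 47, 39.9 and 40.7 CPM (counts scaled to a common library total) in WT testis, 27.6, 30.2 and 22.3 in the CTCF HET libraries, 31.8, 38.4 and 34 in BORIS KO and 27.4, 26.9 and 24 in CM. The CM libraries lay below all WT libraries, with a log2 fold change of -0.74 ± 0.21 (edgeR, Benjamini-Hochberg adjusted p = 0.0329) that stayed under the 2-fold limit. Here and below, the value after ± is an approximate standard error. It is the absolute log2 fold change divided by the square root of edgeR's F statistic. The Ctcf peak (chr8:108160431-108160849, height 487, BORIS 110) overlapped Pol2 and H3K4me3 peaks in both genotypes. In round spermatids the libraries labelled CM had 172, 44.6 and 39.5 CPM of Ctcf against 48.7, 31.3 and 29.4 in WT, and in spermatocytes 85.9, 34 and 33 against 35.2 and 33.3, so the libraries labelled CM did not lie below WT there.

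Ctcfl was near the floor of detection in whole testis, at 0.531, 0.582 and 0.688 CPM in WT and 0.201, 0.122 and 0.156 in CM, and did not pass the filter on low counts. In BORIS KO it was at 0.207, 0.397 and 0.165. Round spermatids had 2.84, 5.12 and 3.38 CPM of Ctcfl in WT and 2.55, 1.7 and 1.11 in the libraries labelled CM. These CM libraries lay below all WT libraries, but the change did not pass (edgeR adjusted p = 0.285). Reads of Ctcfl were thus still counted in libraries labelled CM, and their origin was not tested. Spermatocytes had 0.0789 and 0.0662 CPM in WT and 0, 0.387 and 0 in CM, and Ctcfl was not tested there. The Ctcfl promoter peak (chr2:172944729-172945438, height 488) carried the tallest BORIS signal of the set, at 1808. Whether that site is present on the targeted allele was not examined.

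The genes with a lost CTCF/BORIS peak at the promoter were called in CM testis at shares near those of all genes. By edgeR's quasi-likelihood test (Benjamini-Hochberg adjusted p under 0.05 and a fold change over 2), 148 of 1078 were higher in CM (13.7%) and 44 were lower (4.08%). The background over all 16378 genes tested was 15.3% higher and 5.9% lower. Genes with a kept CTCF/BORIS peak had 14.9% higher and 4.9% lower, and genes with a lost CTCF-only peak 16.6% and 4.4%. The median log2 fold change was 0.06 for the 1078 genes and 0.00 for all genes. Without WT library 2, WT library 3 or CM library 3 no gene of the set passed, and without WT library 1 the counts were 76 higher and 24 lower. These counts show how far the calls move and are no comparison with all genes. The calls above came from a fit that did not pair the libraries. With the replicate number as a block, 48.6% of the set and 51.9% of all genes had an unadjusted edgeR p under 0.05. Without the block the shares were 38.8% and 41.5%.

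Markers of other testis cells moved in the same comparison, although the preparation digests the interstitial tissue that holds Leydig cells. The summed level of 7 Leydig cell markers was 349.9 to 618 CPM in WT and 1806 to 3545 in CM, with 5 of 7 called higher. The sum of 6 spermatogonial markers was 46.4 to 70 against 112 to 413 (2 of 6 higher), that of 6 elongating spermatid markers 17792 to 25714 against 4582 to 13647 (3 of 6 lower), and that of 6 round spermatid markers 719 to 1247 against 295 to 616 (2 of 6 lower). Of 7 Sertoli markers tested 2 were higher (54.6 to 96 against 95.6 to 269), of 7 macrophage markers 5 were higher although their sums overlapped (480.5 to 665 against 522 to 686), and of 4 peritubular markers 1 was higher. None of 6 spermatocyte markers passed (678 to 779 against 534 to 656). The part of these cells in the calls was not tested.

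Prss50, a serine protease made in testis and a known BORIS target, fell in CM whole testis. Its promoter peak (chr9:110760172-110760848) had a CTCF height of 1298 and a BORIS height of 1403. RNA was 9.17, 4.85 and 7.39 CPM in WT, 6.5, 6.87 and 5.83 in CTCF HET testis, 4.5, 4.29 and 6.6 in BORIS KO and 2.31, 1.16 and 0.7 in CM. The CM values did not overlap those of any other genotype, and the log2 fold change against WT was -2.33 ± 0.45 (adjusted p = 0.0161). In round spermatids Prss50 was low and the groups overlapped, at 0.688, 0.664 and 1.19 CPM in WT and 0, 1.08 and 0.592 in CM. The change there did not pass (-0.46, edgeR adjusted p = 0.89). In spermatocytes it was near the floor and was not tested.

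Ammecr1l and Fam124a were low both in CM and in BORIS KO. Ammecr1l was at 125, 80.4 and 137 CPM in WT, 121, 136 and 105 in CTCF HET testis, 33, 30.3 and 30.7 in BORIS KO and 47.8, 41.4 and 45.6 in CM. Both groups without Boris lay below all WT and CTCF HET libraries. The log2 fold change was -1.87 ± 0.22 in BORIS KO (adjusted p = 0.0347) and -1.38 ± 0.26 in CM (adjusted p = 0.0159).

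In round spermatids and spermatocytes the CM libraries of Ammecr1l also lay below all WT libraries. It was at 165, 109 and 117 CPM in CM round spermatids against 310.1, 370.4 and 342 in WT (-1.31, adjusted p = 0.107), and at 205, 211 and 205 in CM spermatocytes against 388 and 402 (-0.89, adjusted p = 0.0205, under the 2-fold limit). Fam124a was at 3.92, 7.31 and 8 CPM in WT, 6.26, 6.56 and 6.03 in CTCF HET testis, 1.78, 2.06 and 1.21 in BORIS KO and 1.4, 1.1 and 1.79 in CM. Its change was -2.21 ± 0.40 in CM (adjusted p = 0.0158), while -1.95 in BORIS KO did not pass (adjusted p = 0.16). Its round spermatid levels did not overlap either, at 3.73, 3.79 and 3.41 in CM against 15.4, 12.7 and 15.2 in WT (-1.89, adjusted p = 0.107).

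The other 7 genes among the 10 lower genes with the smallest p included kinase and phosphatase genes. Csnk1g2, which encodes a casein kinase 1 isoform, was at 1855, 1685 and 1865 CPM in WT and 387, 754 and 565 in CM (-1.69 ± 0.31, adjusted p = 0.0157). The phosphatase gene Cdc14a was at 381, 355 and 364 in WT and 116, 166 and 159 in CM (-1.35 ± 0.24, adjusted p = 0.0156). Pdzd8, Fgd6, Fam134b, Usp49 and Synj2 had log2 fold changes from -1.53 to -1.09. All CM libraries of these genes lay below all WT libraries, which the choice by the smallest p favours. Usp49, a deubiquitinase gene, had lost CTCF/BORIS peaks at 2 of its starts.

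The 10 higher genes with the smallest p were Cr1l, H2-T23, Tmed3, Fads1, Cask, Smarcd3, Eml3, Ssr4, Rab34 and Sc4mol. Fads1, the delta-5 desaturase of polyunsaturated fatty acids, was at 48.3, 37.9 and 31 CPM in WT, 73.5, 103 and 92.4 in BORIS KO and 320.2, 121 and 242 in CM (2.50 ± 0.36 in CM, adjusted p = 0.0151). Cask, a scaffold kinase gene on the X chromosome, was at 2.18, 2.2 and 1.46 in WT, 3.62, 6.19 and 5.28 in BORIS KO and 13.8, 7.03 and 10.8 in CM (2.39 ± 0.34, adjusted p = 0.0151). Smarcd3, a subunit gene of SWI/SNF remodelling complexes, was at 3.36, 2.27 and 2.67 in WT and 14.6, 8.44 and 17.2 in CM (2.24 ± 0.34, adjusted p = 0.0151). The CM libraries of these 3 genes lay above all libraries of the other genotypes, and against WT the choice by the smallest p favours this. Tmed3, Eml3, Ssr4, Rab34, Sc4mol, a sterol synthesis gene, and Cr1l had log2 fold changes from 1.90 to 2.42, and H2-T23 had 2.85, although it belongs to a family of near-identical genes whose reads may be split.

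**Figure D5:**
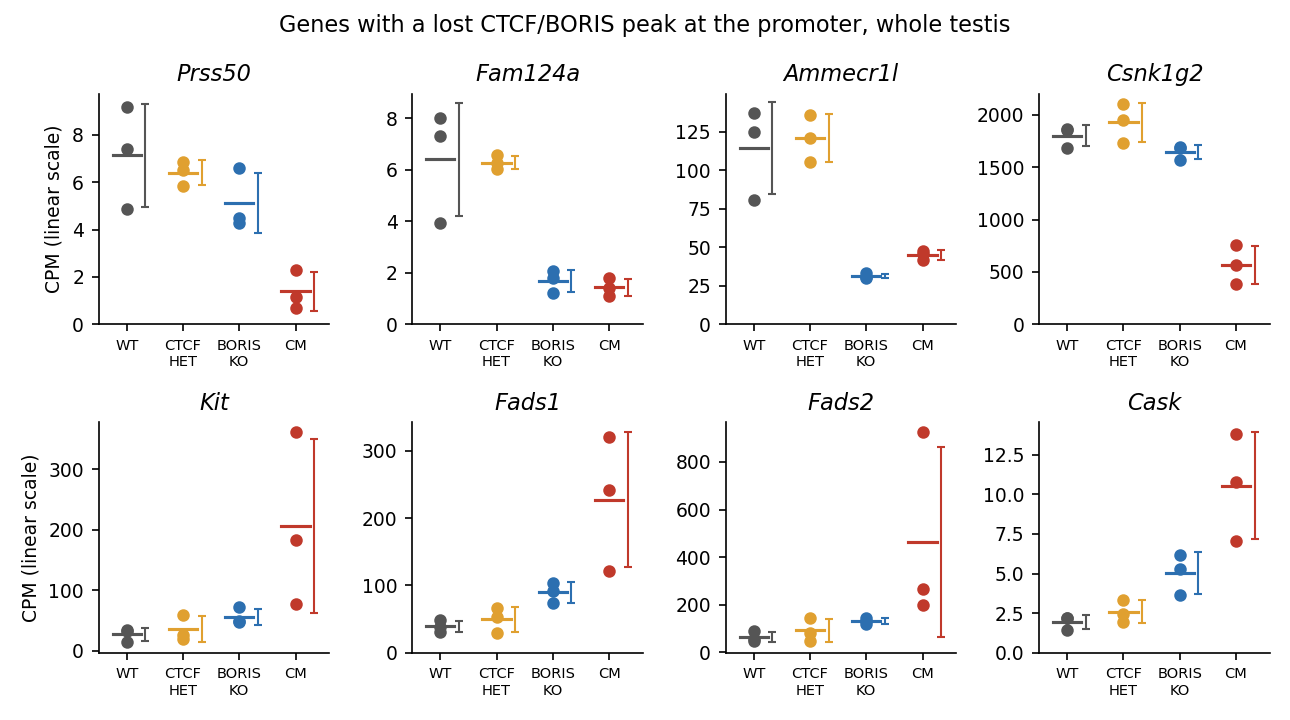
CPM (y axis, linear) of 8 genes with a lost CTCF/BORIS peak at the promoter in the 3 whole testis libraries of each genotype (points), with the mean (line) and SD (bar beside it). Fam124a and Ammecr1l were low in both BORIS KO and CM, Prss50 and Csnk1g2 were lowest in CM, and Kit, Fads1, Fads2 and Cask were highest in CM.

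Of the fatty acid desaturase and elongase list 4 genes had a lost CTCF/BORIS peak at the promoter, and Fads1 and Fads2 rose in CM. Fads2, the delta-6 desaturase, was at 88.3, 55.2 and 46.7 CPM in WT, 144, 48.3 and 81.7 in CTCF HET testis, 132, 144 and 118 in BORIS KO and 924, 198 and 267 in CM (2.82 ± 0.56, adjusted p = 0.0165). Fads3 (0.49, adjusted p = 0.391) and Elovl1 (1.84, adjusted p = 0.061) did not pass. Elovl1 passed by DESeq2 (adjusted p = 0.0123), with the replicate block (edgeR, 0.0175) and without CM library 2 (0.0243), and its log2 fold change was 0.66 without CM library 1. In the whole list 7 of 13 tested genes were higher and none lower, so 5 of the 7 (Fads6, Scd1, Scd2, Elovl5 and Degs1) had no such peak. The 3 Fads peaks had CTCF heights of 288, 752 and 200 and BORIS heights of 132, 320 and 70 in the order Fads1, Fads2, Fads3.

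Kit, the receptor for stem cell factor in differentiating spermatogonia and Leydig cells, rose in CM whole testis. Its intronic peak (chr5:75971412-75972135) was low, with a CTCF height of 132 and a BORIS height of 124, and the only mark there was H3K4me3 in CM, with a peak caller score of 71.6 where the list starts at 50. RNA was 32.3, 34.5 and 15.6 CPM in WT, 60, 26.6 and 20.4 in CTCF HET testis, 48.5, 48.8 and 71.9 in BORIS KO and 361, 76.9 and 183 in CM. The CM libraries lay above all others (2.86 ± 0.53, adjusted p = 0.0159). In purified cells the change did not pass by edgeR, at 2.27 in round spermatids (adjusted p = 0.179) and 0.50 in spermatocytes (adjusted p = 0.554). Spermatocytes had 0.631 and 0.714 CPM in WT and 0.656, 0.815 and 1.29 in CM. Of 14 tested spermatogonial genes 4 were higher (Kit, Zbtb16, Ret and Ccnd2), and the other gene of the list with a lost peak, Sall4, was at 0.88 (adjusted p = 0.137).

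Of the genes for spermatid chromatin, acrosome and signalling 11 of 33 were lower in CM, and 3 had a lost CTCF/BORIS peak. The transcription factor gene Rfx2 was lower (-1.02, adjusted p = 0.0236), while Catsper2 (-0.85, adjusted p = 0.0478) and Tssk3 (-1.08, adjusted p = 0.0807) did not meet both limits. Of the flagellum and axoneme genes 8 of 25 were lower, among them Odf2 (-1.07, adjusted p = 0.0291) and Tekt5 (-1.16, adjusted p = 0.0183) with a lost peak, whereas Dnaic1, also with a lost peak, was at -0.72 (adjusted p = 0.0772). None of 22 tested synaptonemal complex and recombination genes passed. Their members were Spo11, which makes the meiotic DNA breaks (-0.93, adjusted p = 0.0246, under the 2-fold limit), Mlh3 (0.19, adjusted p = 0.515), Ythdc2 (0.13, adjusted p = 0.7) and Mei4, which was not tested. None of 17 CTCF and cohesin genes passed, where Pds5a had a lost peak (0.16, adjusted p = 0.575), and none of 17 piRNA and germ granule genes passed, where Pld6 had 1 (-0.23, adjusted p = 0.513).

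Other loci with a peak of the set gave smaller or no changes. Camta2, a transcription activator gene, had a promoter peak with heights of 846 for CTCF and 815 for BORIS and was at 4.78, 5.24 and 6.62 CPM in WT and 22.5, 7.89 and 12.2 in CM (1.31 ± 0.39, adjusted p = 0.041). Kcnip2, a potassium channel interacting protein gene, had the taller peak at 2969 and 459, and its RNA change did not pass (0.86, adjusted p = 0.159). The peak in the intron of Katnal1, a katanin-like microtubule severing gene, was not at a promoter and had a CM CTCF peak 326 bp away. The gene was at -0.70 (adjusted p = 0.0496, under the 2-fold limit). The promoter peaks of Mfi2 and Ankrd52 were kept, and those of Fer lacked BORIS. No WT CTCF summit was found in Gal3st1 or within 1 kb of it, and BORIS peaks without CTCF were not searched there. The study lists Gal3st1 among direct targets of both factors. The study describes a loss of CTCF and BORIS at the Ankrd52 promoter, where the CM list holds an overlapping CTCF peak. Without a lost CTCF/BORIS peak, Mfi2 (-1.81, adjusted p = 0.0151) and Gal3st1 (-1.86, adjusted p = 0.0246) were lower in CM. Ankrd52 was higher (1.94, adjusted p = 0.0241), and Fer did not pass (-0.83, adjusted p = 0.0771).

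The genes of the set were also divided by Pol2 at their starts and set beside all genes of the same status. Where Pol2 covered the start in both genotypes, 6.56% of 701 such genes were higher in CM and 4.71% lower, against 5.51% and 6.44% of all genes with that status. With Pol2 in CM only, 28.8% of 125 were higher and 0.8% lower, against 34.3% and 1.6%. With Pol2 in neither, 26.7% of 247 were higher and 4.05% lower, against 24.7% and 5.27%. By H3K4me3, 10.5% of 840 genes with the mark in both genotypes were higher and 4.05% lower, against 9.86% and 5.55% of all such genes, and 35.5% of 110 with the mark in CM only were higher and 4.55% lower, against 33.2% and 4.4%.

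In the single mutants hardly any gene of the set passed the test. In BORIS KO 0 of 1078 genes were higher (background 0.00612% of 16344) and 1 was lower, Ammecr1l (0.0928%, background 0.0489%), a call lost without WT library 3, BORIS KO library 2 or BORIS KO library 3. At an unadjusted p under 0.05 there were 181 (16.8%, against 16.6% of all genes), and DESeq2 called 11 higher and 4 lower (1.02% and 0.371%, against 0.918% and 0.459%). With the replicate number as a block, 14 were higher and 5 lower (1.3% and 0.464%, against 1.26% and 0.41% of all genes). In CTCF HET edgeR called 0 of 1075 higher and 0 lower (background 0.00621% and 0%), with 33 at an unadjusted p under 0.05 (3.07%, against 2.63% of all genes), none by DESeq2, and 0 higher and 1 lower with the replicate block.

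The purified cells gave few calls as well. In CM round spermatids edgeR called 0 of 1034 genes of the set higher and 0 lower (background 0.00654% and 0%). At an unadjusted p under 0.05 there were 225 (21.8%, against 20.5% of all genes), and DESeq2 called 94 higher and 13 lower (9.09% and 1.26%, against 6.45% and 2.69% of all genes). Without CM library 1, which held the high Ctcf level, edgeR called 36 higher and 13 lower (3.45% and 1.25%, against 2.4% and 2.73% of all genes). The median log2 fold change of the set was 0.17, against 0.00 over all genes. The sum of spermatogonial markers was 13.1 to 21 CPM in WT and 23.2 to 264 in CM round spermatids, that of round spermatid markers 1406 to 1524 against 659.8 to 949, and their part was not tested.

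In CM spermatocytes 3 of 1020 genes of the set were higher (0.294%, background 0.339%) and 2 lower (0.196%, background 0.0949%). The 4 genes described here were chosen after their values were seen. Sfr1, a recombination repair gene, was at 417 and 274 CPM in WT and 895, 1271 and 1263 in CM (1.77 ± 0.24, adjusted p = 0.0452), and Lpar1, a lysophosphatidic acid receptor gene, at 2.64 and 2.63 against 10.1, 11.3 and 7.68 (1.92 ± 0.25, adjusted p = 0.0426). Dhrs4, a dehydrogenase gene, was at 38.9 and 39 against 11.7, 9.92 and 12.3 (-1.74 ± 0.15, adjusted p = 0.0205), and the formin gene Fmnl1 at 29.2 and 32.2 against 12, 11.7 and 9.55 (-1.43 ± 0.16, adjusted p = 0.036). In each of these 4 genes the 2 groups did not overlap, which the choice of called genes favours. The sum of spermatocyte markers was 2929 to 3146 CPM in WT and 3612 to 5003 in CM, and its part was not tested. None of the 5 calls remained when CM library 2 or CM library 3 was left out, and without CM library 1 edgeR called 57 higher and 73 lower (5.67% and 7.26%, against 8.61% and 6.5% of all genes). Without either WT library none remained either, but a single WT library is then left and is assumed to vary like the CM group.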

How the data were processed

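ChIP-seq and RNA-seq libraries of mouse testis were used as deposited. Per the sources, the authors aligned ChIP reads to mm9 with Bowtie2 and called peaks with MACS and MACS2. They deposited CTCF and BORIS lists whose values are summit heights from PeakSplitter, a signal of read coverage, and Pol2 and H3K4me3 lists whose values are MACS scores of at least 50. Each antibody and genotype has 1 list, and how libraries were combined, where there were 2, was not given in the sources used here. The RNA tables hold raw read counts per gene symbol that the authors deposited, from reads aligned to mm9 with TopHat2 (whole testis) or STAR (round spermatids and spermatocytes). The submitters' processing notes also name Bowtie, Cufflinks 2.0.0 and DESeq2 without a role.

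The members and gene lists were chosen with earlier results of these data known. Peaks were compared by an overlap of at least 1 bp, with transcription starts from GENCODE vM1 (NCBIM37). Shares were compared by two-sided Fisher's exact test, with 95% intervals that cover counting error only. The Benjamini-Hochberg adjustment ran over 12 comparisons in the main setting. In each alternative it ran over the comparisons of that setting, for some of them fewer than 12. The RNA tests used edgeR 4.0.16 (TMM, quasi-likelihood, filterByExpr with a minimum count of 10) on the 2 groups compared, fitted on all genes of the table, and DESeq2 1.42.0 as an alternative, with R 4.3.3. CPM were computed from the counts for display. Library totals were 10437683 to 42055813 counts in 12 whole testis libraries and 50861159 to 98545423 in 11 libraries of round spermatids and spermatocytes. The motif scan, the comparison of shares and the edgeR fit were tested on simulated data. Genes named are the study's example loci, the 10 higher and 10 lower called genes with the smallest p, the 5 tallest peaks of each factor, listed genes with a member, and the 5 largest marks found in a single genotype. Replicate numbers paired the whole testis libraries (18 of 18 correlations of deviations over 0.1, mean 0.35), since every pair passed that limit in the data. The main fits did not pair them, and the replicate block was an alternative. Round spermatids and spermatocytes were not paired (4 of 18 and 1 of 15). Alternatives covered the overlap, promoter distance, height, GC content, motif threshold, scaling, count filter, test, replicate block and each library left out. The purified cells of CTCF HET and BORIS KO mice were not analysed here. A single gene called in spermatocytes is not reported here.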

Additional observations from a re-analysis of the deposited data

Results flagged for a closer look

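In 8 of the 38 named genes with a lost CTCF/BORIS peak at the promoter that reached 1 CPM in at least 2 sources (21.1%), every CM library lay above all WT libraries in one source and below all of them in another. The share was 10.8% of 994 genes over all genes with such a peak and 11.6% of 13756 over all genes, and many of the named genes had been picked for their change in whole testis. The difference between the sources was not tested in any of these, and no group held more than 3 libraries. Values are log2 fold changes of CM against WT from edgeR.

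Of the genes higher in whole testis and lower in spermatocytes, Fads1 was at 2.50 and -0.57, Eml3, a microtubule-associated protein gene, at 1.92 and -0.45, Elovl1, a fatty acid elongase gene, at 1.84 and -0.90, and Camta2 at 1.31 and -0.43. Of the genes lower in whole testis and higher in spermatocytes, Fam134b, an endoplasmic reticulum autophagy receptor gene, was at -1.25 and 0.97, Tssk3, a testis-specific kinase gene, at -1.08 and 1.55, with -1.02 in round spermatids, and Spo11 at -0.93 and 0.27, with -1.55 in round spermatids. Usp49 was at -1.22 in whole testis, 0.32 in round spermatids and -0.43 in spermatocytes. The summed Leydig markers differed between WT and CM in whole testis (349.9 to 618 against 1806 to 3545 CPM) and overlapped in round spermatids (1.14 to 1.56 against 0.95 to 1.82). In spermatocytes they were 9.59 to 10.2 in WT and 10.3 to 12.2 in CM without overlap, with a median log2 fold change of 2.77 over the 5 markers tested, and their part in these values was not tested.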

How the results depend on the processing

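Of 170 values of the peak comparisons under alternatives, 149 kept their direction and side of the threshold, 10 no longer passed and 11 reversed. Differences are in percentage points, and where they changed the cause was not tested. For 2 or more motif matches against kept peaks, the difference was -2.98 with the stricter match, -2.19 over the whole peak, -3.25, -1.62, -5.42 and -5.45 in GC classes 1 to 4, 8.86 in the lowest height class (adjusted p = 0.343), and, chosen after seeing the data, -1.27 at promoters and 3.59 away from them (adjusted p = 0.0599). Against lost CTCF-only peaks it was -5.16 and 4.78 in GC classes 1 and 2. In the highest height class, the mark differences against kept peaks were 5.5 (WT Pol2) and 3.81 (WT H3K4me3). At promoters of that class, also chosen after seeing the data, they were 1 (WT Pol2), -8.8 (WT H3K4me3), -0.0268 (CM Pol2) and -1.84 (CM H3K4me3), and against lost CTCF-only peaks 19.8, 8.07, 22.5 and 20.7.

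The following counts are of genes of the set and show how far the calls move, with no comparison to all genes. In CM whole testis, 148 higher and 44 lower genes became 0 and 0 at an adjusted p under 0.001, and 78 were lower without the fold limit. Leaving out a library gave 0 to 207 higher and 0 to 52 lower. In BORIS KO, with 0 higher and 1 lower, DESeq2 gave 11 and 4, the stricter p gave 0 lower, and leaving out a library gave 0 to 2 in either direction (2 higher without BORIS KO library 1, 1 higher and 2 lower without WT library 1, 0 lower without WT library 3 or BORIS KO library 2 or 3). In round spermatids, DESeq2 gave 94 and 13 and leaving out a library 0 to 36 higher and 0 to 13 lower. In spermatocytes, with 3 higher and 2 lower, DESeq2 gave 41 and 18, no count filter 0 higher, the stricter p 0 and 0, no fold limit 4 lower, and leaving out a library 0 to 57 higher and 0 to 73 lower.

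With the replicate block, the paired whole testis counts of the set were 186 higher and 57 lower in CM, 14 and 5 in BORIS KO and 0 and 1 in CTCF HET. At an unadjusted edgeR p under 0.05 with the block, CM held 48.6% of the set and 51.9% of all genes. In BORIS KO these shares were 31.1% and 30.2%, and in CTCF HET 11.1% and 12.3%. In round spermatids and spermatocytes, which share only a number, the block gave 0 and 0, and 4 and 1.

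For named genes, 437 of 607 values kept direction and side, 160 no longer passed, 10 newly passed and none reversed. Of 29 named genes called in CM whole testis, 0 were called without WT library 2, WT library 3 or CM library 3.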

Other observations

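On the X chromosome, 40 of 86 CTCF/BORIS peaks (46.5%, 95% interval 36.3 to 57) were of the lost class, against 1749 of 5988 on the autosomes (29.2%, 28.1 to 30.4). CTCF/BORIS peaks on X were also lower, with a median CTCF height of 1071 against 1690.5. By height class, the lost share was 85.7%, 88%, 50% and 5.88% on X and 92.3%, 74%, 40.2% and 5.84% on the autosomes. Among CTCF-only peaks the lost share was 40.7% on X and 47.1% on the autosomes. Being lost is the rule that chose the peaks, so these shares are a description.

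The tallest CTCF peaks among the lost CTCF/BORIS peaks carried no Pol2 or H3K4me3 peak in either genotype. They lay near SNORA17 (height 2990), near Slc9a3r2 (2969), at the Kcnip2 promoter (2969), in an intron of Fam179a (2824) and near Gm16862 (2794). After Ctcfl and Prss50, the tallest BORIS signals were in a coding exon of the adenylyl cyclase gene Adcy5 (1224), at the phosphatase gene Ptp4a2 (1008) and between Tada2b and Ccdc96 (1003). The last 2 had both marks in both genotypes.

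Among lost peaks with a Pol2 peak in WT only, the largest scores were near Qrich2 (1972), 1700019D03Rik (1839.7) and 4930477E14Rik (1762), followed by Rnpepl1 (463) and Tchh (333). With Pol2 in CM only they were near the metallothionein gene Mt1 and at Gm2529 (3100 each), at Apc2 (2107), in Hmga1 (1480) and at Azin1 (1352). With H3K4me3 in WT only they were 2 peaks near AY036118 (546 and 338, meeting 4 and 5 BORIS peaks), then Grap (311), 4930433N12Rik (267) and Pik3ap1 (239). With H3K4me3 in CM only they were in 1700010I14Rik (1450.2), near Cux1 (1142) and 1700001J04Rik (824), in Tmem102 (680.3) and at Spred2 (546). These scores come from single lists with no replicate.

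In round spermatids, CM library 2 stood above the other CM libraries for Kit (41.9 CPM against 5.2 and 13.3), Cask (19.3 against 0.776 and 3.93), Fads1 (15 against 2.34 and 2.26) and Camta2 (20.7 against 7.48 and 5.64), whereas the high Ctcf level was in CM library 1.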
